A study of Mus musculus with 8 samples.

Results

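Osteogenic induction was followed in control cells of the mouse line C3H10T1/2, which was derived from C3H mouse embryos and is used as a model of mesenchymal stem cells. The cells carried a non-target control (NC) and were taken before induction (day 0, NC) or after 7 days in osteogenic medium (NC-7d), with 2 libraries in each group. These are 4 of the 8 libraries of the series. The other 4 hold the same comparison in an arm whose cells received an shRNA targeting *Nap1l2*, labelled KD-Nap1l2 and KD-Nap1l2-7d, and were used here to estimate the spread and to test where the response differed. Whether the cells of an arm are 1 clone or a pool is not given in the sources used here. The libraries were chosen by their labels, and their response was described across 18605 genes, of which 13470 had enough counts to be tested.

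Osteogenic medium, as the study's methods describe it, adds dexamethasone, ascorbic acid and β-glycerol phosphate to culture medium with serum. Dexamethasone is a synthetic glucocorticoid that binds the glucocorticoid receptor, a transcription factor. Ascorbic acid is a cofactor of the enzymes that hydroxylate collagen, and β-glycerol phosphate supplies phosphate for mineral. Commitment of mesenchymal cells to bone is classically followed through the transcription factors RUNX2 and osterix (*Sp7*), then alkaline phosphatase (*Alpl*), and finally the matrix proteins bone sialoprotein (*Ibsp*) and osteocalcin (*Bglap*). NC-7d cells were also 7 days longer in culture than NC cells, so the medium and the time in culture cannot be told apart.

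The 8 libraries held 17420284 to 19427359 estimated read counts. Values for single genes are normalised read counts, that is, counts divided by a library factor (TMM) so that libraries can be compared, unless FPKM, which scales a count to gene length as well, is named. Nothing in the labels says that the libraries of a group came from separate cultures, so p-values measure the spread between these libraries only, which may be technical. On a principal component analysis of the 4 libraries, the first component held 67.4% of the variance and separated the days, and the second held 21.5% and separated the NC-7d libraries from each other. The libraries of NC-7d were at least 2-fold apart in 490 of 11164 genes with a mean of 50 counts, against 152 of 11302 in NC. *Nap1l2*, which was not targeted in these cells, was counted at 2.95 and 2.80 in NC and at 16.0 and 4.79 in NC-7d, close to the limit of detection (log2 fold change 1.79, standard error 0.87, edgeR adjusted p = 0.253). In RNA of whole cultures, fewer cells of a type and less RNA per cell cannot be told apart.

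Among the 13470 genes tested, 1106 (8.21%) passed an adjusted p-value of 0.05 between NC-7d and NC in the quasi-likelihood test of edgeR (Benjamini-Hochberg), and these genes are named called genes from here on. Of these, 651 (4.83%) rose and 455 (3.38%) fell during induction. A fold change of at least 4 was reached by 131 called genes that rose and by 147 that fell. The libraries of the 2 days did not overlap in any called gene, while among all genes tested both NC-7d libraries lay above both NC libraries in 29.4% and below them in 28.4%. The median log2 fold change over all genes tested was -0.0035. The number of calls depended strongly on which libraries entered the fit, those of the other arm included. A library left out also changes the estimate of spread, and the part of this in the lost calls was not tested. Without NC replicate 1, 122 genes were called, and 104 of the 1106 were called in every fit tried, with each library left out in turn.

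**Figure D1:**
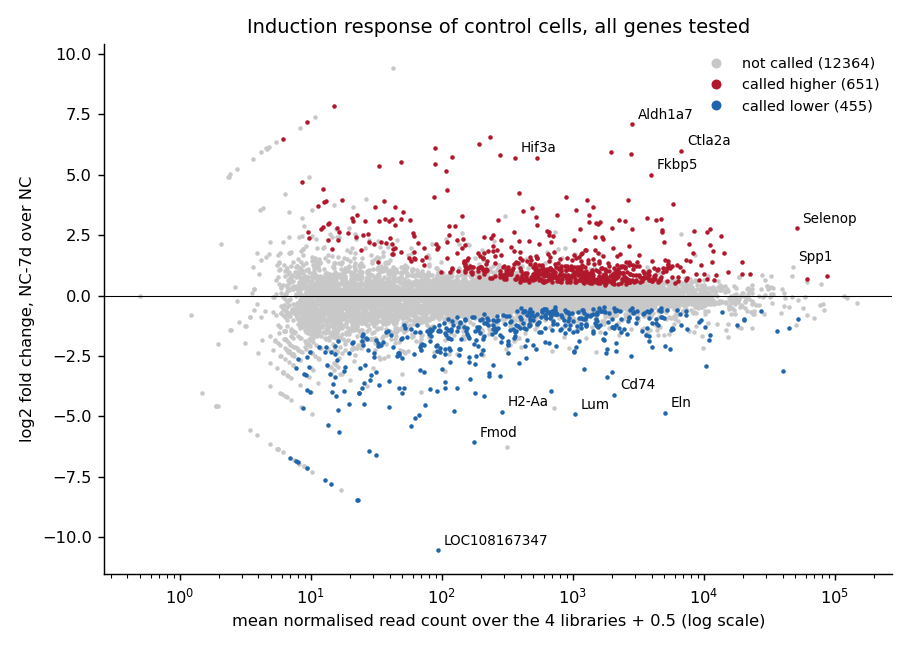
Each point is 1 of the 13470 genes tested, with its mean normalised read count over the 4 control libraries on a log axis and its log2 fold change from NC to NC-7d on the other axis. Red points (651) were called higher and blue points (455) called lower at day 7. Among well-counted genes, *Aldh1a7*, *Ctla2a* and *Fkbp5* lie near the top and *Eln*, *Lum* and *Fmod* near the bottom, and *LOC108167347*, at 0 in NC-7d, lies lowest of all.

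The steepest rises among well-counted genes were in detoxifying enzymes, a protease inhibitor family and a lubricant of joints. *Aldh1a7*, an aldehyde dehydrogenase, had 26.6 and 55.1 counts in NC and 3840 and 7440 in NC-7d (log2 fold change 7.10, standard error 0.46, edgeR adjusted p = 0.000434). Its paralog *Aldh1a1*, which makes retinoic acid from retinaldehyde, went from 59.0 and 127 to 4914 and 6094 counts (log2 fold change 5.88, standard error 0.39, edgeR adjusted p = 0.000434). Both pairs of libraries lay far apart, but reads from near-identical stretches of the paralogs can be assigned to either gene. *Ctla2a*, a cysteine protease inhibitor, had 166 and 252 counts in NC and 14463 and 12144 in NC-7d (log2 fold change 5.99, standard error 0.26, edgeR adjusted p = 6.76e-05). Its neighbour *Ctla2b* had 9.84 and 9.34 counts before and 582 and 514 after induction, which gave 5.82 on the log2 scale (standard error 0.23, edgeR adjusted p = 5.04e-05). These also resemble each other in sequence, so the division of reads between them is uncertain.

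*Prg4* encodes lubricin, which coats cartilage surfaces, and rose from 11.8 and 28.0 to 503 and 1612 counts (log2 fold change 5.71, standard error 0.79, edgeR adjusted p = 0.00701). *Clca3a1*, of a family of secreted chloride channel regulators, rose from 40.3 and 85.9 to 4879 and 2843 counts (5.93, standard error 0.40). The days did not overlap in either gene. *Kcnj15*, an inward rectifier potassium channel, had 2.95 and 1.87 counts at day 0 and 249 and 97.7 at day 7. *Map7d2*, a microtubule-associated protein gene, had 3.94 and 4.67 counts and then 164 and 307. The transcript *4930486L24Rik* had 6.89 and 2.80 counts and then 414 and 513. Their log2 fold changes lay between 5.73 and 6.56, and the edgeR adjusted p-values of these 3 genes and *Clca3a1* between 0.000432 and 0.0023.

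Many glucocorticoid response genes rose. Of 40 genes in a list of glucocorticoid receptor targets and regulators, 37 were tested, of which 15 rose and 3 fell, against 4.83% and 3.38% of all genes tested. The median log2 fold change of the list was 1.11, and 30 of the 37 lay above 0. With NC replicate 1 left out 11 members were called higher and 0 lower, and with NC-7d replicate 1 left out 15 and 1, while the median stayed between 1.02 and 1.25 over all libraries left out. *Fkbp5* (Entrez 14229, chromosome 17, 28398753 to 28486149 of GRCm38.p6), a co-chaperone that limits the receptor's activity, had 153 and 329 counts in NC and 9050 and 6379 in NC-7d. This was a rise of 5.0 on the log2 scale (standard error 0.37, edgeR adjusted p = 0.000694), and the gene was called in every fit tried. *Hif3a*, a hypoxia-inducible factor subunit that is also a glucocorticoid target, had 10.8 and 15.9 counts before and 752 and 667 after induction (log2 fold change 5.71, standard error 0.26, edgeR adjusted p = 6.76e-05).

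The other called members that rose were *Sult1a1*, *Zbtb16*, *Tsc22d3*, *Glul*, *Pdk4*, *Lcn2*, *Fam107a*, *Sgk1*, *Mgst1*, *Errfi1*, *Mertk*, *Tgm2* and *Ctgf*. *Tsc22d3* encodes GILZ, a mediator of anti-inflammatory actions of glucocorticoids, and *Zbtb16* encodes the transcription factor PLZF. *Tsc22d3* had 654 and 778 counts in NC and 7454 and 5933 in NC-7d (log2 fold change 3.22, standard error 0.25). *Zbtb16* had 113 and 159 counts and then 1268 and 1518 (3.35, standard error 0.36). Within each day the libraries of these genes lay close together compared with the distance between days. *Glul*, glutamine synthetase, had 835 and 938 counts and then 7071 and 8350 (3.12, standard error 0.19). *Sgk1*, a serum- and glucocorticoid-regulated kinase, had 1393 and 1322 and then 6600 and 10048 (2.62, standard error 0.22). *Lcn2*, lipocalin 2, a secreted iron-siderophore binding protein, had 2715 and 3117 and then 20625 and 18602 (2.75, standard error 0.25). The edgeR adjusted p-values of these 5 genes ran from 0.000417 to 0.00281.

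Members that fell were *Igfbp2*, an insulin-like growth factor binding protein, the clock repressor *Nr1d1* and *Nr3c1*, the gene of the glucocorticoid receptor itself. *Nr3c1* had 4797 and 3534 counts in NC and 1785 and 2056 in NC-7d (log2 fold change -1.12, standard error 0.20, edgeR adjusted p = 0.0155). *Igfbp2* had 118 and 184 counts and then 11.8 and 8.62 (-3.88, standard error 0.61, edgeR adjusted p = 0.0105). Several textbook targets did not pass the test. The metallothionein gene *Mt2* had 1758 and 2155 counts at day 0 and 13522 and 9503 at day 7 (log2 fold change 2.56, standard error 0.69, edgeR adjusted p = 0.0636). *Per1* had 1108 and 613 and then 1478 and 2237 (1.11, standard error 0.41, edgeR adjusted p = 0.148). The libraries of the 2 days did not overlap in either gene.

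**Figure D2:**
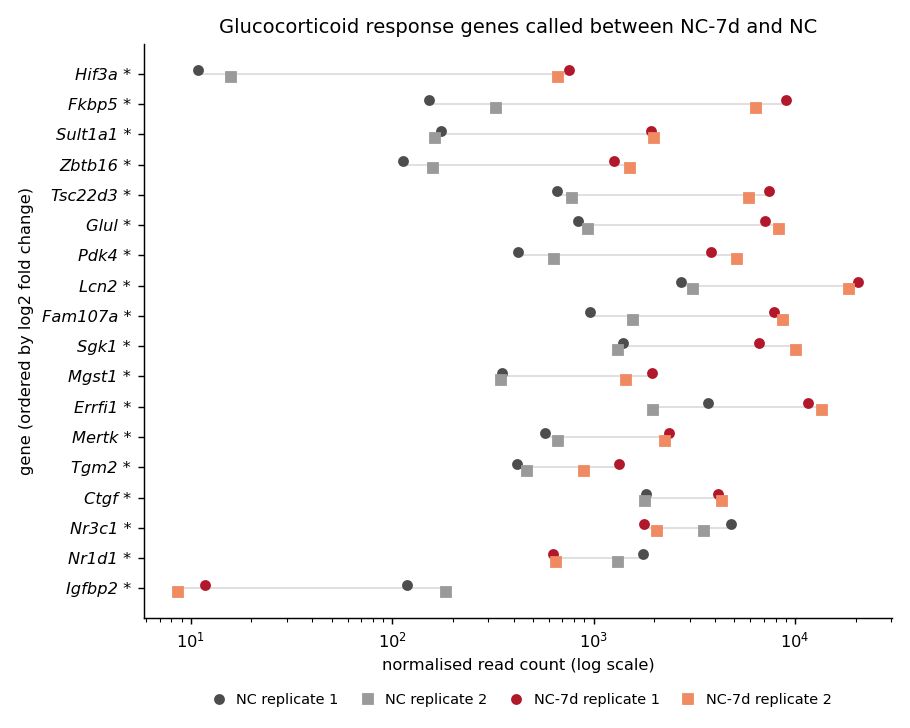
Normalised read counts of the 18 called genes of the glucocorticoid response list in each of the 4 control libraries, on a log axis, ordered by log2 fold change. Grey symbols are NC and red or orange symbols NC-7d, with circles for replicate 1 and squares for replicate 2. In all 18 genes the NC and NC-7d symbols stand apart, to the right at day 7 in 15 of them and to the left in *Nr3c1*, *Nr1d1* and *Igfbp2*.

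Promoters of these genes were read from RefSeq's sequences for GRCm38.p6. A receptor dimer binds an inverted repeat whose conserved letters are ACANNNTGT, which reads alike on both strands. The motif was found in 8 of 41 promoters (19.5%) of 28 list genes with an entry, belonging to 6 genes, against 4.35% of the 13624 promoters of genes tested and 6.36% of those of called genes that rose. The window searched ran from 250 bases before to 50 after each start, and some genes have several overlapping entries. The 200 bases before the start are given for *Glul*, a list member called in every fit tried, and for *Ctla2a* and *Ctla2b* from among the steepest rises, with the motif in capitals. *Ctla2a* and *Ctla2b* are not in the list and were chosen for display after their values were seen.
Glul, chr1:153899729-153899928, plus strand: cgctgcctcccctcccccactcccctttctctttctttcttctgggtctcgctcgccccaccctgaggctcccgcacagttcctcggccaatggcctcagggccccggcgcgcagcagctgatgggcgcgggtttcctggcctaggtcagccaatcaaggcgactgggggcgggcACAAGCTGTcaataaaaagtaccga
Ctla2a, chr13:60936626-60936825, minus strand: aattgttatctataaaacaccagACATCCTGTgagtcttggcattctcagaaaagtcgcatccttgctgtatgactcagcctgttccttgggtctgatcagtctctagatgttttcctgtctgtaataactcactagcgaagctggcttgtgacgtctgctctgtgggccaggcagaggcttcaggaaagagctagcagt
Ctla2b, chr13:60897448-60897647, minus strand: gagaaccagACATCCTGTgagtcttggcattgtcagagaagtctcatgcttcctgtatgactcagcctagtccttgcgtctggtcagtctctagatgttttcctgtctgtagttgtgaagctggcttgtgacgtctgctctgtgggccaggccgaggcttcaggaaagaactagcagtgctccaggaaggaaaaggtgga
The motif started 25 bases before the start of *Glul*, 177 before that of *Ctla2a* and 191 before that of *Ctla2b*, where it had the same letters in both paralogs. A match of letters is a description and not evidence of binding.

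The steepest falls were in proteins of the extracellular matrix and in antigen presentation. *Eln* (Entrez 13717, chromosome 5, 134702595 to 134747368), which encodes elastin, had 12202 and 7560 counts in NC and 220 and 463 in NC-7d. It fell 28.9-fold (log2 fold change -4.85, standard error 0.42, edgeR adjusted p = 0.00143) and was called in every fit tried. *Lum*, lumican, and *Fmod*, fibromodulin, are small leucine-rich proteoglycans that bind collagen fibrils. *Lum* had 2322 and 1718 counts at day 0 and 99.5 and 35.4 at day 7 (log2 fold change -4.92, standard error 0.44, edgeR adjusted p = 0.00165). *Fmod* had 607 and 85.0 counts and then 2.14 and 7.66 (-6.07, standard error 1.11, edgeR adjusted p = 0.0181), with NC libraries that differed widely from each other. *Ptn*, the secreted growth factor pleiotrophin, was chosen after its values were seen as the most counted gene with a fall of this kind. It had 82539 and 62846 counts in NC and 9007 and 7655 in NC-7d (-3.13, standard error 0.3, edgeR adjusted p = 0.00192) and was called in every fit tried.

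Other genes of this group lay at a few counts after induction. *F13a1*, a subunit of coagulation factor XIII that cross-links proteins, had 166 and 89.7 counts and then 6.42 and 1.92 (-4.93, standard error 0.71, edgeR adjusted p = 0.00835). *Megf6*, a gene of a protein with epidermal growth factor repeats, had 193 and 92.5 counts and then 6.42 and 5.75 (-4.53, standard error 1.06). *Rgs8*, a regulator of G-protein signalling, had 202 and 41.1 counts and then 1.07 and 5.75 (-5.06, standard error 0.99). The uncharacterised *LOC108167347* had 128 and 244 counts in NC and 0 in both NC-7d libraries, so it was at least 61.9-fold lower, taking 3 counts per library as the limit that a count of 0 allows. In the libraries of the other arm this gene had 46.0 and 0 counts at day 0 and 116 and 112 at day 7, so its presence did not follow the day there. The edgeR adjusted p-values of *Megf6*, *Rgs8* and *LOC108167347* lay between 0.0277 and 0.0405.

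In the list of small leucine-rich proteoglycans and other matrix proteins, 11 of 36 tested members fell and 1 rose, against 3.38% and 4.83% of all genes tested, with a median log2 fold change of -0.43. The 11 became 2 without NC replicate 1 and 6 without NC replicate 2, either NC-7d library or either KD-Nap1l2-7d library. The called members that fell were *Dcn*, *Fmod*, *Lum*, *Kera*, *Thbs1*, *Fbn1*, *Fbn2*, *Eln*, *Fbln5*, *Mfap4* and *Abi3bp*, which encode proteoglycans and components of elastic fibres among others. *Dcn*, decorin, had 3395 and 2663 counts and then 417 and 755 (-2.37, standard error 0.36, edgeR adjusted p = 0.00935). *Vcan*, the large proteoglycan versican, was the member that rose, from 5565 and 5751 to 12273 and 14637 counts (1.25, standard error 0.18, edgeR adjusted p = 0.00734). *Bgn*, biglycan, the most counted member, had 172438 and 154273 counts and then 138916 and 122615 (-0.32, standard error 0.16, edgeR adjusted p = 0.266). Fibronectin, *Fn1*, had 65756 and 91006 and then 45633 and 44654 (-0.80, standard error 0.30, edgeR adjusted p = 0.149). Its libraries did not overlap between days, nor did those of *Bgn*.

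Of 34 collagen chain genes tested, 7 fell and 2 rose (median -0.45), and of 29 genes of collagen modification and cross-linking, 7 fell and 1 rose (median -0.40), against 3.38% and 4.83% of all genes tested. Neither list had a called member without NC replicate 1. Collagen chains called lower numbered 3 without NC replicate 2 and 4 without either NC-7d or either KD-Nap1l2-7d library, and genes of collagen modification called lower otherwise ranged from 4 without NC-7d replicate 1 to 11 without KD-Nap1l2 replicate 2. *Col15a1*, a basement membrane zone collagen, had 19346 and 17462 counts in NC and 1079 and 3839 in NC-7d (log2 fold change -2.90, standard error 0.53, edgeR adjusted p = 0.0175). *Col4a2*, a chain of basement membrane collagen, rose from 8978 and 11647 to 22051 and 18364 (0.97, standard error 0.21, edgeR adjusted p = 0.0313). *Col11a1*, a minor fibrillar collagen of cartilage, rose from 310 and 292 to 1423 and 554 (1.71, standard error 0.41, edgeR adjusted p = 0.0433). The chains of type I collagen, the main collagen of bone, did not pass. *Col1a2* had 91000 and 90792 counts and then 59662 and 84203 (-0.34, standard error 0.20, edgeR adjusted p = 0.332).

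*P4ha1* encodes a catalytic subunit of the prolyl hydroxylase that uses ascorbic acid, and *Serpinh1* a chaperone of procollagen in the endoplasmic reticulum. *P4ha1* had 9886 and 8291 counts in NC and 2155 and 1754 in NC-7d (-2.22, standard error 0.51, edgeR adjusted p = 0.0367). *Serpinh1* had 29796 and 24288 counts and then 12483 and 14443 (-1.01, standard error 0.22, edgeR adjusted p = 0.0313). The days did not overlap in either gene. *Lox*, lysyl oxidase, which cross-links collagen and elastin, had 29862 and 15567 counts and then 31808 and 39396 (0.65, standard error 0.37, edgeR adjusted p = 0.324). *Tgm2*, a transglutaminase, was the member that rose, from 417 and 468 to 1330 and 896 (1.33, standard error 0.20, edgeR adjusted p = 0.0085). Among 28 matrix proteases and their inhibitors 2 rose and 3 fell (median 0.03), against 4.83% and 3.38% of all genes tested. None was called without NC replicate 1. The gelatinase gene *Mmp9* fell from 108 and 78.5 to 2.14 and 8.62 counts (-4.05, standard error 0.52, edgeR adjusted p = 0.00522), and *Timp4*, an inhibitor of metalloproteinases, rose from 10.8 and 3.74 to 34.2 and 48.9 (2.51, standard error 0.63, edgeR adjusted p = 0.0499). *Serpine2*, protease nexin, was the most counted and fell from 74372 and 53486 to 25190 and 25753 (-1.33, standard error 0.19, edgeR adjusted p = 0.00734).

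Of the classical osteoblast genes, *Sp7*, *Alpl*, *Ibsp* and *Bglap* stayed at or near the limit of detection. *Sp7*, osterix, was counted at 4.92 and 1.87 in NC and at 1.07 and 4.79 in NC-7d. *Alpl*, tissue non-specific alkaline phosphatase, was counted at 5.90 and 6.54 and then at 5.35 and 3.83. *Ibsp*, bone sialoprotein, was counted at 0.984 and 0 and then at 0 and 0.958. None of these 3 genes had enough counts to enter the test, the days overlapped in *Sp7* and *Ibsp*, and a change was not detectable at this depth. Where none was counted, up to 3 counts remain possible, which is 0.154 to 0.172 CPM in these 4 libraries, and such limits cover counting error only. *Bglap*, osteocalcin, had 14.8 and 3.74 counts and then 3.21 and 9.58 (log2 fold change -0.49, standard error 1.17, edgeR adjusted p = 0.838), and its reads can be shared with the near-identical *Bglap2*. Its sign turned with single libraries, from -1.48 to 0.78 over the fits tried. The osteoblast markers *Dmp1* and *Phex* were counted above that limit at both days. *Dmp1* had 503 and 287 counts and then 165 and 71.8 (-1.74, standard error 0.65, edgeR adjusted p = 0.147). *Phex* had 361 and 191 counts and then 392 and 39.3, with overlapping days (-0.36, standard error 0.86, edgeR adjusted p = 0.838).

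*Runx2* (Entrez 12393, chromosome 17, 44495987 to 44814797), the master transcription factor of the lineage, was present at both days. Its counts were 1546 and 1497 in NC and 1173 and 1046 in NC-7d, without overlap (log2 fold change -0.46, standard error 0.14, edgeR adjusted p = 0.0924). The deposited FPKM values ran the other way, at 11.5 and 10.5 in NC and 13.2 and 14.4 in NC-7d, a difference of 0.30 on the log2(FPKM + 1) scale. The gene has 15 transcripts in the transcript table, to 12 of which reads of these libraries were assigned, and the part of the isoforms in this was not tested. Such a disagreement in sign was found in 0 of the 1106 called genes. Of the 21 osteoblast transcription factors tested, 1 rose and 4 fell (median -0.07), against 4.83% and 3.38% of all genes tested. No factor was called without NC replicate 1, and the 4 became 1 without NC replicate 2, NC-7d replicate 1 or either KD-Nap1l2-7d library and 7 without either KD-Nap1l2 library. *Mef2c*, a MADS-box factor, fell from 2051 and 1371 to 339 and 444 counts (-2.13, standard error 0.33, edgeR adjusted p = 0.00983). The homeobox genes *Dlx5* and *Msx1* and the Wnt effector *Tcf7* also fell. *Twist2*, which encodes a repressor of RUNX2, rose from 398 and 543 to 850 and 781 (0.79, standard error 0.18, edgeR adjusted p = 0.0394).

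Of 21 tested bone matrix genes 1 was called higher and 1 lower, near the shares of all genes tested (4.83% and 3.38%). Members lay on both sides of 0, from -1.74 to 2.62 with 7 at an unadjusted p under 0.05, and the median of -0.10 reached 0.29 with a library left out. *Spp1*, osteopontin, had 30505 and 28028 counts in NC and 96929 and 36941 in NC-7d (log2 fold change 1.19, standard error 0.38, edgeR adjusted p = 0.0974). Both NC-7d libraries were higher, replicate 1 far more so, and the log2 fold change ran from 0.34 to 1.73 over the fits tried. *Mgp*, matrix Gla protein, an inhibitor of calcification, was the member that rose, from 2217 and 3689 to 25004 and 11270 counts (2.62, standard error 0.41, edgeR adjusted p = 0.0103). *Sparc*, osteonectin, fell from 82420 and 56971 to 32632 and 37464 (-0.99, standard error 0.23, edgeR adjusted p = 0.0363). *Col1a1* had 71115 and 63679 counts and then 38267 and 55540 (-0.52, standard error 0.26, edgeR adjusted p = 0.269).

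**Figure D3:**
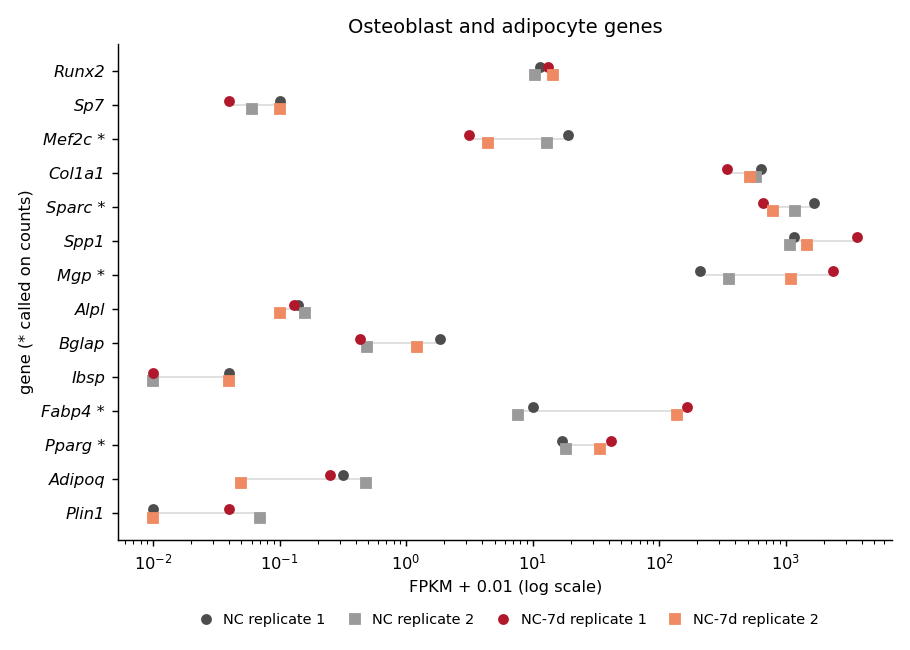
FPKM of osteoblast and adipocyte genes in the 4 control libraries, on a log axis with a small constant added so that 0 can be drawn. Grey symbols are NC and red or orange symbols NC-7d, circles are replicate 1 and squares replicate 2, and an asterisk marks genes called on counts. *Sp7*, *Alpl*, *Ibsp*, *Adipoq* and *Plin1* lie below 1 FPKM in every library, while *Fabp4* and *Mgp* move to the right at day 7.

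Markers of other cell types were compared as FPKM. Of 11 mesenchymal markers, 9 were at or above 1 FPKM in all 4 libraries, and their sum ran from 6800 to 7910 in NC and from 4250 to 5060 in NC-7d. It came mostly from *Vim* (3160 and 2900, then 1560 and 2410) and *Ly6a* (1970 and 3580, then 2560 and 761), neither of which was called. Of the others, *Thy1* and *Col3a1* were called lower, and *Pdgfra*, *Pdgfrb*, *Eng* and *Cd44* were not called, with log2 fold changes from 0.09 to 0.23. The mesenchymal surface marker *Nt5e* (CD73) was at or below 0.05 FPKM in each library. Of 8 osteoblast markers, 2 reached 1 FPKM in all 4 libraries, with sums of 20 to 27.6 in NC and 17.6 to 21.5 in NC-7d. The sum of 7 adipocyte markers was 26.9 to 27.6 in NC and 173 to 208 in NC-7d, and it came almost wholly from *Fabp4* and *Pparg*. Sums over endothelial, epithelial, neural and skeletal muscle markers stayed at or below 3.01 in every library. The sum of 5 chondrocyte markers was 77.2 to 78.9 in NC and 65.4 to 84.3 in NC-7d, and came mostly from *Sox9*. That of 4 smooth muscle markers was 698 to 894 and 307 to 647, and came almost wholly from *Acta2*. Blood cell markers summed to 6.83 to 9.54, with *Ptprc* (CD45) at or below 0.01.

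Some genes of a list of adipogenesis and lipid storage rose, among them genes of lipases. Of 32 tested genes of adipogenesis and lipid storage, 6 rose and 1 fell (median 0.37), against 4.83% and 3.38% of all genes tested. Without NC replicate 1 the counts were 3 and 0. *Fabp4*, a fatty acid binding protein of adipocytes and macrophages, had 114 and 85.0 counts in NC and 1880 and 1506 in NC-7d (log2 fold change 4.09, standard error 0.40, edgeR adjusted p = 0.00192). The transcription factor genes *Pparg*, *Cebpb* and *Klf15* and the lipase genes *Pnpla2* and *Lipe* rose as well. *Klf15* had 38.4 and 35.5 counts and then 176 and 125 (2.02, standard error 0.24, edgeR adjusted p = 0.00423). *Pnpla2*, the adipose triglyceride lipase, had 467 and 506 and then 1580 and 1539 (1.68, standard error 0.18, edgeR adjusted p = 0.00253). *G0s2*, which encodes an inhibitor of that lipase, fell from 111 and 62.6 to 4.28 and 7.66 (-3.82, standard error 0.55, edgeR adjusted p = 0.00796). The 2 most counted members did not pass. *Plin4* had 6549 and 6891 counts and then 6817 and 14192, with overlapping days (0.64, standard error 0.33, edgeR adjusted p = 0.272). *Scd2* had 15071 and 16447 and then 18544 and 20253 (0.30, standard error 0.19, edgeR adjusted p = 0.387). The defining genes of mature adipocytes were not detected beyond traces, with *Plin1* at or below 0.06 FPKM and *Adipoq* at or below 0.47 FPKM in each library.

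Cartilage genes gave 4 rises and 1 fall among 17 tested (median 0.14), and none without NC replicate 1. For this list and those of smooth muscle and mesenchymal surface genes, the shares of all genes tested were 4.83% higher and 3.38% lower. The called rises among cartilage genes were *Prg4*, *Sox5*, *Sox6* and *Col11a1*. *Sox5*, a chondrocyte transcription factor, rose from 14.8 and 19.6 to 64.2 and 69.0 counts (1.94, standard error 0.29, edgeR adjusted p = 0.009). *Col10a1*, the collagen of hypertrophic cartilage, fell from 35.4 and 28.0 to 1.07 and 6.71 (-2.95, standard error 0.67, edgeR adjusted p = 0.0369). *Sox9*, the master factor of cartilage, had 5664 and 5460 counts and then 4509 and 5743, with overlapping days. Of 28 smooth muscle and contractile genes, 1 rose and 4 fell (median -0.24), the falls being *Myh11*, *Myh10*, *Itga1* and *Tpm1*. Of 23 mesenchymal surface markers, *Alcam* rose and *Thy1* fell (median -0.08). Neither of these lists had a call without NC replicate 1, and the smooth muscle falls became 1 without NC-7d replicate 1 or either KD-Nap1l2-7d library.

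Of 35 tested Wnt pathway genes, 10 fell and none rose, against 3.38% and 4.83% of all genes tested, with a median log2 fold change of -0.64. The 10 became 2 without NC replicate 1 and 6 without NC-7d replicate 1, and the median ran from -0.66 to -0.25 over the processing alternatives. The R-spondins amplify Wnt signals at the cell surface, and 3 of them fell. *Rspo2* had 9220 and 7197 counts in NC and 1458 and 2380 in NC-7d (log2 fold change -2.10, standard error 0.29, edgeR adjusted p = 0.00733). *Rspo3* had 185 and 174 counts and then 11.8 and 30.7 (-3.06, standard error 0.39, edgeR adjusted p = 0.00519) and was called in every fit tried. *Rspo1* had 59.0 and 43.9 counts and then 2.14 and 6.71 (-3.48, standard error 0.53, edgeR adjusted p = 0.00935). The other called members were the ligand gene *Wnt6*, the receptor genes *Fzd1*, *Fzd4* and *Fzd8*, the secreted Wnt antagonists *Sfrp1* and *Sfrp2*, and the nuclear effector *Tcf7*, so the falls covered both activators and inhibitors. *Sfrp1* had 10992 and 10439 counts and then 3774 and 4422 (-1.39, standard error 0.19, edgeR adjusted p = 0.007).

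Of 42 BMP and TGF-beta genes, 2 rose and 1 fell (median -0.12), which is near the 4.83% and 3.38% of all genes tested. The fall was in *Bmp4*, a bone morphogenetic protein, from 2065 and 1461 to 721 and 785 counts (-1.23, standard error 0.18, edgeR adjusted p = 0.0085). Of 30 genes of the IGF and FGF systems, 1 rose and 6 fell (median -0.04). Without NC replicate 1 neither of these lists had a call, and the 6 became 3 without NC-7d replicate 1. *Igf2*, a growth factor, had 18053 and 15678 counts in NC and 4665 and 6205 in NC-7d (-1.63, standard error 0.26, edgeR adjusted p = 0.0116). *Igf1*, *Igfbp2*, *Igfbp3*, *Pappa2* and the feedback inhibitor *Spry2* also fell, and *Fgfr2* rose. Of 23 Yap and Tead targets and factors, 5 rose and none fell (median 0.20), with 2 or 3 rises when any of the NC, NC-7d or KD-Nap1l2-7d libraries was left out. *Tead4*, a DNA-binding partner of Yap, had 41.3 and 104 counts and then 792 and 1009 (3.63, standard error 0.39, edgeR adjusted p = 0.00264). *Cyr61* of the same list had 7549 and 3717 counts in NC and 683 and 8428 in NC-7d, a difference of more than 10 times between the NC-7d libraries.

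The antigen presentation list, which holds MHC class I and class II genes and immunoproteasome subunits, had 16 tested members. Of these 7 fell, against 3.38% of all genes tested, the other 9 did not pass, and none rose. All 16 had a log2 fold change below 0, with a median of -1.51. The libraries of a day also differed, with a median log2 ratio of replicate 1 to replicate 2 of -0.62 in NC and 0.56 in NC-7d. In the shRNA arm the median log2 fold change of these members was 0.59, with 1 called higher and 1 lower. The 7 became 3 without NC replicate 1, 4 without NC replicate 2, NC-7d replicate 2 or either KD-Nap1l2-7d library, and 10 without NC-7d replicate 1. MHC class II molecules present peptides to helper T cells and are assembled with the invariant chain (*Cd74*). *H2-Aa*, the class II alpha chain, had 419 and 694 counts in NC and 19.2 and 20.1 in NC-7d (log2 fold change -4.81, standard error 0.50, edgeR adjusted p = 0.0023). The beta chain gene *H2-Ab1* had 157 and 325 counts and then 7.49 and 9.58 (-4.80, standard error 0.52, edgeR adjusted p = 0.00286). *Cd74* had 3610 and 4274 counts and then 257 and 201 (-4.11, standard error 0.32, edgeR adjusted p = 0.000944), and was called in every fit tried. The days did not overlap in these genes. *H2-Eb1*, *H2-DMb1* and the immunoproteasome genes *Psmb8* and *Psmb9* completed the called members. Outside the list, the class II gene *H2-Ea-ps*, which the annotation names as a pseudogene, fell from 85.6 and 143 to 4.28 and 0.958 counts (-5.42, standard error 0.67, edgeR adjusted p = 0.00479). *Ciita*, the master activator of class II genes, had 56.1 and 161 counts and then 22.5 and 34.5 (-1.92, standard error 0.57, edgeR adjusted p = 0.0837).

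Class II genes were low before induction in the cells with the shRNA, where *H2-Aa* had 13.7 and 13.5 counts at day 0 and 3 and 16.7 at day 7. The response of *H2-Aa* differed by 4.34 on the log2 scale between the arms (standard error 0.84, edgeR adjusted p = 0.403), which did not pass over all genes. No class I gene of the list passed the test in NC cells, although *H2-Q1*, *H2-Q4*, *H2-Q6*, *H2-Q9* and *H2-M3*, which are outside the list and were chosen after their values were seen, fell. *H2-Q4* had 7643 and 9261 counts and then 4282 and 2179 (-1.39, standard error 0.29, edgeR adjusted p = 0.0287), and reads of such paralogs can be shared. *B2m*, the light chain of class I molecules, had 83279 and 100382 counts and then 60721 and 35336 (-0.94, standard error 0.26, edgeR adjusted p = 0.0665). *H2-K1*, a class I heavy chain, had 19065 and 23966 counts and then 11356 and 4594 (-1.43, standard error 0.37, edgeR adjusted p = 0.0556). In cells with the shRNA the log2 fold changes of *B2m* and *H2-K1* lay above 0, at 0.78 and 0.75 (edgeR adjusted p = 0.0812 and 0.205). The responses of the arms differed by 1.71 for *B2m* and 2.18 for *H2-K1*, which did not pass (edgeR adjusted p = 0.408 and 0.442).

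The promoters of class II genes share a module that ends in a Y box, which is a CCAAT box read here as CCAAT or ATTGG. This motif was in 11 of 14 promoters (78.6%) of the 12 antigen presentation genes with an entry, against 38.4% of promoters of genes tested. It was also in 44 of 58 promoters (75.9%) of the DNA replication and mitosis list. The high share was therefore not particular to antigen presentation genes. The 200 bases before the start of the called members *H2-Aa*, *H2-Eb1* and *H2-DMb1* are shown, with the motif in capitals.
H2-Aa, chr17:34287824-34288023, minus strand: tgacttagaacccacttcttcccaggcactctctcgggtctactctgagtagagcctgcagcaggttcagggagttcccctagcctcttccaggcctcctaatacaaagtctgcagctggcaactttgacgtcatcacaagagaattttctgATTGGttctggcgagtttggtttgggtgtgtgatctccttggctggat
H2-Eb1, chr17:34305667-34305866, plus strand: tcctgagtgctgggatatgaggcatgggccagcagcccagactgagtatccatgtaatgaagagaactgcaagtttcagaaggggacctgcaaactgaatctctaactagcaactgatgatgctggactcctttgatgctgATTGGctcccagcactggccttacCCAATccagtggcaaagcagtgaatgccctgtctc
H2-DMb1, chr17:34152991-34153190, plus strand: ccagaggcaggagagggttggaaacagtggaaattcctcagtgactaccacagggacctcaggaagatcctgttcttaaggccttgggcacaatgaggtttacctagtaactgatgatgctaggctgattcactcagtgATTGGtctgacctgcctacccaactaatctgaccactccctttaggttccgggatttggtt
The first match started 48, 59 and 61 bases before the start of *H2-Aa*, *H2-Eb1* and *H2-DMb1*.

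Secreted immune genes moved in both directions. Among 29 tested chemokine, cytokine and acute phase genes, 9 rose and 3 fell, against 4.83% and 3.38% of all genes tested (median 0.34). The counts were 1 and 0 without NC replicate 1 and 5 and 3 without NC replicate 2, and the median turned to -0.16 with a library left out. Acute phase genes, which the liver secretes in inflammation, were among the rises. *Saa3*, a serum amyloid A gene, went from 6.89 and 13.1 to 244 and 172 counts (log2 fold change 4.35, standard error 0.67, edgeR adjusted p = 0.00975). *Hp*, haptoglobin, went from 104 and 205 to 2280 and 2560 (3.97, standard error 0.52, edgeR adjusted p = 0.00576). *Orm1*, *Serpina3n*, *Lcn2*, *Il1rn* and the chemokine genes *Ccl9*, *Cxcl1* and *Cxcl5* rose as well. *Tnfaip6*, a hyaluronan-binding protein, fell from 924 and 441 to 85.6 and 113 (-2.78, standard error 0.43, edgeR adjusted p = 0.0101). *Tnfrsf11b*, osteoprotegerin, the decoy receptor that restrains osteoclasts, fell from 2954 and 2343 to 1109 and 688 (-1.56, standard error 0.23, edgeR adjusted p = 0.00845), and *Ptx3* fell too. *Cxcl12*, the most counted member, had 133834 and 123131 counts and then 143215 and 97549, with overlapping days. Of 17 complement genes none was called by edgeR, with 7 at an unadjusted p under 0.05 and a median of -0.19, while DESeq2's Wald test called 2 higher and 1 lower.

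Interferon-stimulated genes differed more between the NC-7d libraries than between days. None of 37 tested members was called by edgeR, 1 had an unadjusted p under 0.05, and DESeq2's Wald test called 0. Their median log2 fold change was -0.52, while the median log2 ratio of NC-7d replicate 1 to replicate 2 was 1.92. *Ifit3*, an antiviral effector, had 31016 and 41441 counts in NC and 37139 and 5618 in NC-7d. *Ifit1*, of the same family, had 19439 and 24060 and then 21169 and 4423. In both genes NC-7d replicate 1 lay within or close to the NC libraries and replicate 2 far below them. Without NC-7d replicate 1, 5 members were called lower, and without replicate 2 none was.

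Genes of DNA replication and mitosis showed the second such split. Of 66 tested, edgeR and DESeq2 called 0, with 2 at an unadjusted p under 0.05 by edgeR, although 57 lay below 0 (median -0.26). The median log2 ratio of NC-7d replicate 1 to replicate 2 was -0.96. *Mki67*, the proliferation marker Ki-67, which was chosen after its values were seen, had 5897 and 6255 counts in NC and 2578 and 5657 in NC-7d. Without NC-7d replicate 2, 31 of the 66 members were called lower, and without replicate 1 none was. *Ccnd1*, cyclin D1, had 9305 and 10441 counts and then 9586 and 11486 (0.09, standard error 0.15, edgeR adjusted p = 0.742). Among 24 CDK inhibitors and p53 targets, *Sesn1* and *Trp53inp1* rose and none fell (median 0.18), against 4.83% and 3.38% of all genes tested. *Trp53inp1*, a p53-induced stress gene, had 3282 and 2416 counts and then 8726 and 6806 (1.45, standard error 0.20, edgeR adjusted p = 0.00713). *Cdkn1a*, the gene of p21, had 5258 and 4463 and then 8078 and 6861 (0.62, standard error 0.22, edgeR adjusted p = 0.133). Of 23 histone genes, *Hist2h2be* fell (median -0.46), against 3.38% of all genes tested. This call was lost without NC replicate 1, NC-7d replicate 1 or either KD-Nap1l2-7d library.

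**Figure D4:**
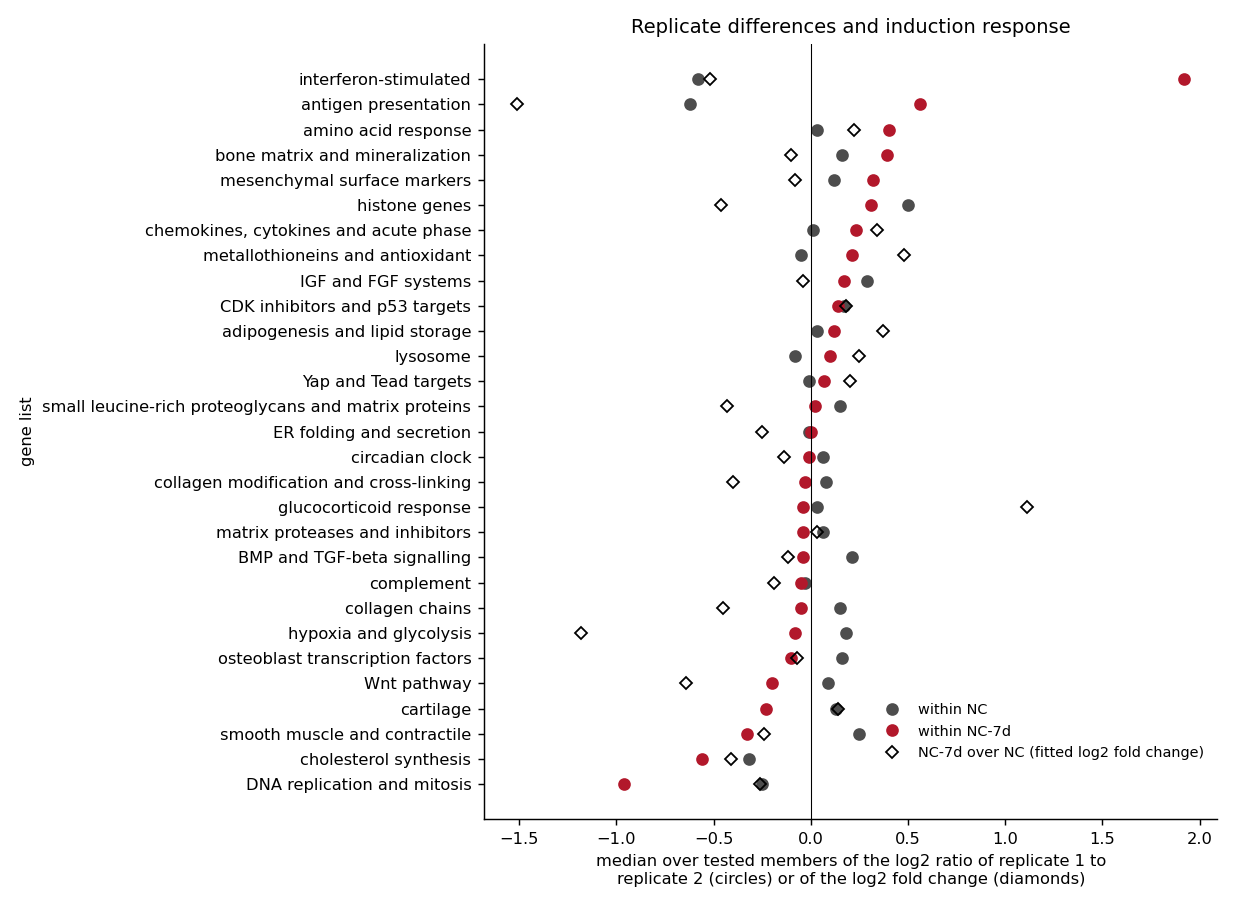
For each gene list, circles show the median log2 ratio of replicate 1 to replicate 2 within NC (grey) and within NC-7d (red), and open diamonds the median log2 fold change from NC to NC-7d. The interferon-stimulated list (1.92) and the DNA replication and mitosis list (-0.96) show the widest gaps within NC-7d, while for the glucocorticoid response list the circles lie near 0 and the diamond at 1.11.

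Hypoxia and glycolysis genes were lower with little overlap, but few passed the test. Of 32 tested members, 28 had a log2 fold change below 0, in 25 both NC-7d libraries lay below both NC libraries against 28.4% of all genes tested, and the median was -1.18. Only *Pdk1*, pyruvate dehydrogenase kinase, was called, which fell from 2534 and 1816 counts to 250 and 279 (log2 fold change -3.04, standard error 0.75, edgeR adjusted p = 0.0481). *Gapdh*, the glycolytic enzyme often used as a reference gene, had 76909 and 65575 counts and then 30542 and 30473 (-1.22, standard error 0.57, edgeR adjusted p = 0.238). *Car9*, carbonic anhydrase 9, a classical hypoxia target that was chosen after its values were seen, had 2038 and 754 and then 53.5 and 56.5 (-4.66, standard error 1.18, edgeR adjusted p = 0.0523). The 2 KD-Nap1l2 libraries, which enter the estimate of spread, also differed in these genes. In the KD-Nap1l2 group the median log2 ratio of replicate 1 to replicate 2 over the list was -1.68, and *Gapdh* had 38604 and 182235 counts there. In the fit of only the 4 control libraries, 16 members were called lower, and with either KD-Nap1l2 library left out 19 were, while with any other library left out none was. DESeq2's Wald test called 7.

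Hypoxia-inducible factors bind a core of ACGTG, or CACGT on the other strand, and both overlap in CACGTG. This motif, chosen after the values of the list were seen, was in 25 of 46 promoters (54.3%) of its 30 genes with an entry, against 24.4% for genes tested. The 200 bases before the start are shown for the list members *Car9* and *Ldha* (lactate dehydrogenase A), neither of which passed the test, and for *P4ha1*, which was called lower but belongs to the collagen modification list and not to this one. All 3 were chosen for display after their values were seen, and the motif is in capitals.
P4ha1, chr10:59323096-59323295, plus strand: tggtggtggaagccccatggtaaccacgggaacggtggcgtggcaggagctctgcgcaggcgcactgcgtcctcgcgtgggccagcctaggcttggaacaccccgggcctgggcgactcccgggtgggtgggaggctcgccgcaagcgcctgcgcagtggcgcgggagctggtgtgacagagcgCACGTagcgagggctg
Car9, chr4:43506826-43507025, plus strand: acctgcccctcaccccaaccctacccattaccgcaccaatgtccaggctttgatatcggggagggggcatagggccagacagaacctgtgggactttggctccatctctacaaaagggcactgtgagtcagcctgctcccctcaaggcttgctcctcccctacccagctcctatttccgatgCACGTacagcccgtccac
Ldha, chr7:46845604-46845803, plus strand: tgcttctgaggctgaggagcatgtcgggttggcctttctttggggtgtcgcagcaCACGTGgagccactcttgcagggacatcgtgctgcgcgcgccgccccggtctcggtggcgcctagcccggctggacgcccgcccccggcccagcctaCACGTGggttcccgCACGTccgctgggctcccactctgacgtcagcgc
The match of *P4ha1* started 16 bases and that of *Car9* 18 bases before the start. *Ldha* had 15802 and 13848 counts in NC and 4132 and 5207 in NC-7d (-1.67, standard error 0.44, edgeR adjusted p = 0.0602).

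Antioxidant genes rose in part. Of 26 tested metallothionein and antioxidant genes, 6 rose and 1 fell (median 0.48), against 4.83% and 3.38% of all genes tested. Without any 1 of the NC libraries, NC-7d replicate 1 or the KD-Nap1l2-7d libraries, 4 rose and none fell. *Selenop*, the secreted selenium carrier, went from 11499 and 14593 to 91381 and 89254 counts (log2 fold change 2.79, standard error 0.18, edgeR adjusted p = 0.000432), which placed it at 2420 and 2470 FPKM in NC-7d. *Gclc*, the catalytic subunit of glutathione synthesis, went from 444 and 571 to 3398 and 3565 (2.78, standard error 0.19, edgeR adjusted p = 0.000534). Both were called in every fit tried. *Aldh1a1*, the zinc transporter *Slc39a14*, *Txnrd1* and *Cat* rose too, and the zinc transporter *Slc39a10* fell.

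In the remaining lists the calls were few, and over all genes tested 4.83% were called higher and 3.38% lower. Of 32 lysosome genes, 4 rose (none without NC replicate 1, and 1 or 2 with most other libraries left out) and none fell (median 0.25), among the rises *Npc1*, a cholesterol exporter, from 929 and 1174 to 2486 and 2156 counts (1.14, standard error 0.17, edgeR adjusted p = 0.0084). Of 29 cholesterol genes only *Abcg1*, a cholesterol efflux pump, was called, rising from 109 and 155 to 582 and 498 (2.03, standard error 0.20, edgeR adjusted p = 0.00204), while the list median was -0.41. Of 23 genes of the amino acid response, *Mthfd2* and *Cebpb* rose (median 0.22), and of 25 genes of folding and secretion in the endoplasmic reticulum edgeR called none, with 9 at an unadjusted p under 0.05 (median -0.25), and DESeq2's Wald test called 2 lower. Clock genes gave 1 rise and 4 falls among 20 (median -0.14), and no call without NC replicate 1. *Dbp*, an output factor of the clock, fell from 824 and 787 to 224 and 170 counts (-2.04, standard error 0.34, edgeR adjusted p = 0.0133), as did *Per3*, *Nr1d1* and *Nr1d2*. *Arntl*, the activator BMAL1, rose from 361 and 249 to 875 and 513 (1.18, standard error 0.28, edgeR adjusted p = 0.0402). The hour of harvest is not given in the sources used here, and its part in these values was not tested.

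**Figure D5:**
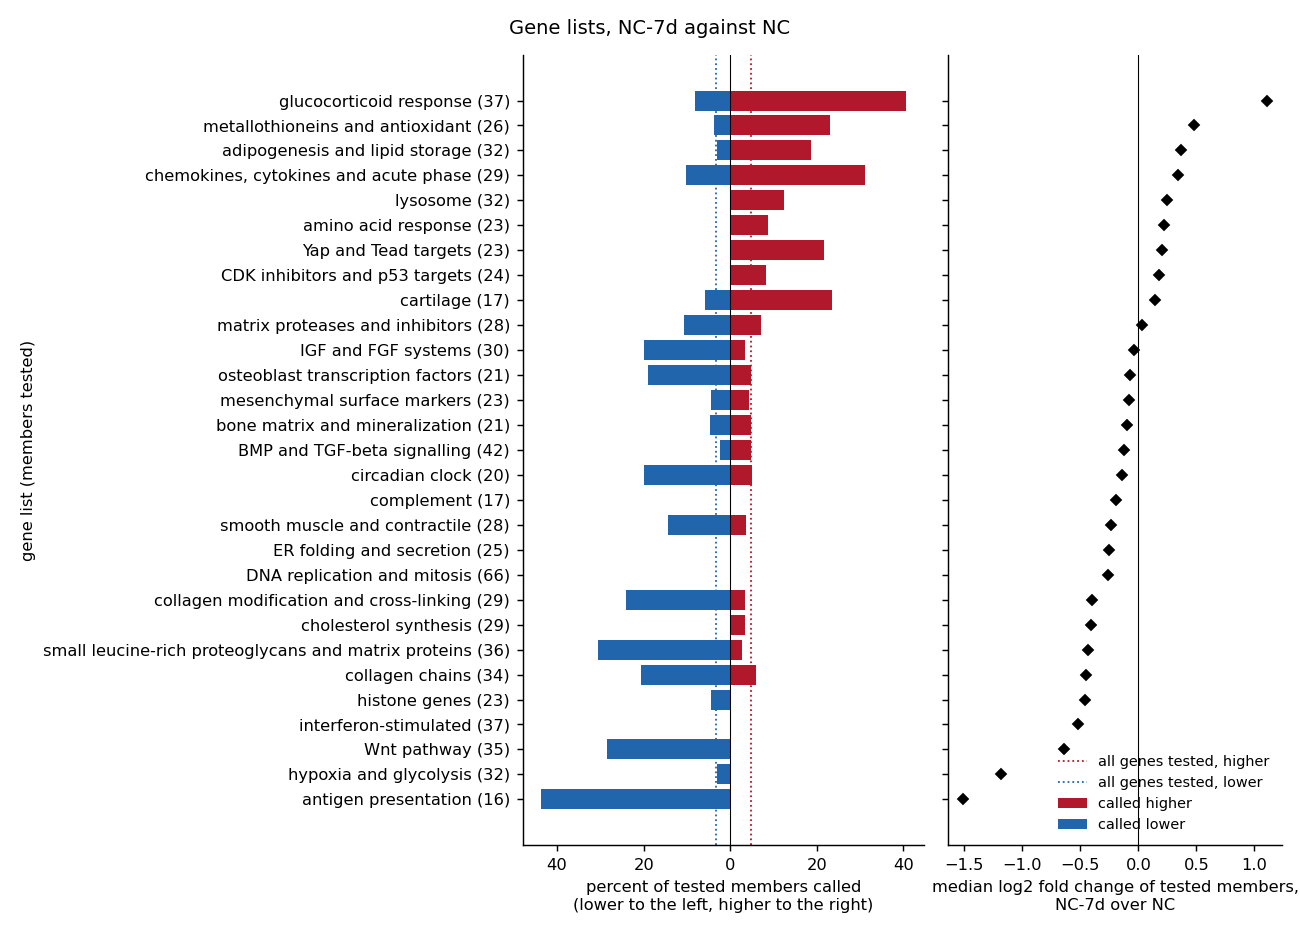
Left, the percent of tested members of each of 29 gene lists that were called lower (blue, to the left) or higher (red, to the right) at day 7, with dotted lines at 3.38% and 4.83% for all genes tested. Right, the median log2 fold change of the tested members. The glucocorticoid response list (median 1.11) lies at the top and the antigen presentation list (-1.51) at the bottom.

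The response of NC cells was set beside that of cells with the shRNA by testing the difference between both responses. Within the shRNA arm edgeR called 921 genes higher (6.84%) and 991 lower (7.36%) at day 7. For the difference edgeR called 0 of 13470 genes, with 948 at an unadjusted p under 0.05, and DESeq2's Wald test called 100. Of the 1106 genes called in NC, 42 had the opposite sign in the other arm. *Fkbp5* had 183 and 175 counts at day 0 and 7299 and 7086 at day 7 in cells with the shRNA, and its response differed by 0.33 on the log2 scale (standard error 0.45, edgeR adjusted p = 0.902). For *Eln* the difference was -0.59 (standard error 0.52, edgeR adjusted p = 0.837), with 7607 and 6472 counts and then 133 and 190. *Sult1a1*, a sulfotransferase, had 174 and 163 counts in NC and 1920 and 1982 in NC-7d, against 55.7 and 63.4 and then 1276 and 1461 with the shRNA. Its responses differed by 0.99 (standard error 0.19, edgeR adjusted p = 0.403). An adjusted p that misses the threshold does not show that the arms responded alike.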

How the data were processed

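RNA-seq of control C3H10T1/2 cells was analysed at day 0 and day 7 of induction. For every library the authors deposited raw estimated counts of genes and transcripts, and 41.1% of genes hold a fractional value. The authors deposited FPKM values beside them, scaled to gene length and library. The submitters' processing notes name RSEM, Bowtie2 and BWA and the build GRCm38.p6, without roles or versions. Both deposited comparison tables hold the authors' DESeq2 log2 fold changes, p-values and q-values of knockdown against control and were not used.

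Counts of 18605 genes were rounded, filtered with filterByExpr, scaled by TMM and fitted with edgeR 4.0.16 in R 4.3.3 to the 4 groups of all 8 libraries, so a gene's spread also came from the shRNA libraries. Quasi-likelihood p-values were adjusted by Benjamini-Hochberg, with 0.05 as the threshold. Standard errors are the size of the log2 fold change over the root of its F statistic. Each gene's test borrows its spread from the 4 residual degrees of freedom of the fit and from other genes. An exact two-sided permutation test of 2 libraries against 2 cannot go below 0.333 and was not used. The scripts were tested on simulated counts.

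Gene lists were described by counts and medians, without a set test. The lists, and the comparison itself, were chosen with earlier results of these data known. Genes were named by a rule. It takes 9 lineage genes (*Nap1l2*, *Runx2*, *Sp7*, *Bglap*, *Spp1*, *Alpl*, *Col1a1*, *Ibsp* and *Sparc*). It adds 10 called genes in each direction by size of change, given a mean count of 50 or more and no overlap between days. Of these, 1 gene that rose is not reported here. From each list it takes up to 4 called members by size of change and the 2 most counted. Any other gene, among them further list members named because they were or were not called, was chosen after its values were seen. Promoters came from RefSeq (GRCm38.p6) and motifs were counted with Python 3.11.15. Alternatives were DESeq2 1.42.0, RLE factors, no filter, at least 10 counts in every library, only the 4 control libraries, the replicate number as a block, limma 3.58.1 on log2(FPKM + 1) or log2(FPKM + 0.1), an added 2-fold limit, and each library left out in turn. The search for the hypoxia motif was added after the values were seen. Figures were drawn with matplotlib 3.10.9.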

Additional observations from a re-analysis of the deposited data

How the results depend on the processing

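The 1106 calls between NC-7d and NC were 1523 by DESeq2, 1084 with RLE factors, 1293 without a filter, 966 with at least 10 counts in every library, 749 in the fit of only the 4 control libraries, and 1019 and 1059 by limma on log2(FPKM + 1) and log2(FPKM + 0.1). They fell to 669 with a fold change of at least 2. With each library left out in turn the count ran from 122 to 1490, and the lone library of a group was then assumed to vary like the other groups. It moved by more than 1.5 times without NC replicate 1 (122), NC replicate 2 (522), NC-7d replicate 1 (581), KD-Nap1l2-7d replicate 1 (576) and KD-Nap1l2-7d replicate 2 (572). Of the 1106 genes, 514 were called in every processing alternative except the added 2-fold limit. That limit is not a separate fit, and it was also left out where genes are described as called in every fit tried.

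The count of genes whose response differed between the arms was 0 and became 100 by DESeq2 and 1 without a filter, by the same test, and ran from 0 to 19 with each library left out, the 19 without NC-7d replicate 1.

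For the replicate number, the deviations of the libraries within NC and NC-7d correlated at -0.03 over the genes tested. The labels do not say whether libraries with the same number were paired, and this value cannot show that they were not. With the replicate block, 961 genes were called, 893 of them among the 1106, and 0 genes for the difference between arms.

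Over the 1293 values from processing alternatives for 147 named genes, 83 lost and 12 gained the call and 2 changed sign, both in *Runx2*, which was 0.30 with log2(FPKM + 1) and 0.32 with log2(FPKM + 0.1). With single libraries left out, 12 of 1176 changed sign, none of them in a called gene. These log2 fold changes ran from -0.19 to 0.21 for *Atf4*, -1.48 to 0.78 for *Bglap*, -0.04 to 0.22 for *Ccnd1*, -0.4 to 0.16 for *Cxcl12*, -3.04 to 0.58 for *Cyr61*, -2.69 to 0.04 for *Ifit3*, -0.06 to 0.12 for *Myh9*, -0.08 to 0.08 for *Slc3a2* and -0.3 to 0.05 for *Sox9*. With 17420284 or more counts a library, depth limits genes near 0 counts, such as *Sp7*, *Alpl* and *Ibsp*.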

Other observations

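Genes known from the cleavage-stage embryo, which embryonic stem cells switch on in a small share of cells, were counted in NC cells and were lower at day 7. The list (*Zscan4*, *Tcstv*, *Usp17l* and *Tdpoz* family members, *Zfp352* and *Gm12794*) was chosen after values were seen, so it gets no test as a list. It holds 18 genes with a count, of which 11 were tested. By edgeR 6 of these were called lower and 0 higher, against 3.38% and 4.83% of all genes tested. The others did not pass, such as *Zscan4b* with 31 and 8 rounded counts and then 0 and 1 (edgeR adjusted p = 0.077). The summed rounded counts of the 18 genes were 535 and 277 in NC and 52 and 49 in NC-7d. In KD-Nap1l2 they were 627 and 819, and in KD-Nap1l2-7d 147 and 107. In both NC-7d libraries 12 of the genes were at 0, and 1 was at 0 in both NC libraries. *Zscan4f* had 66 and 26 rounded counts in NC and 0 in both NC-7d libraries. *Usp17le* had 66 and 34 and then 2 and 2, and *Usp17la* 149 and 104 and then 48 and 42. *Gm12794* had 95 and 32 and then 0 and 1. NC replicate 1 held more of these counts than replicate 2, and members of these families are near-identical copies that share reads.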
